A study of Mus musculus with 4 samples.

Results

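Keratins are the intermediate filament proteins of epithelial cells, and the keratin genes of 4 mouse sarcomas are described here. The genes were chosen by name alone, as every gene of the deposited table whose symbol is Krt followed by digits only, which gave 50 of 56691 genes. The 4 sarcomas arose spontaneously in W/+ mice, which carry 1 germline copy of a deleterious p53 mutation (R279W, written p53R282W/+ after the human residue in the labels) in every cell. The ATO group held 2 sarcomas of mice given arsenic trioxide (ATO), a compound that refolds some p53 mutants, at 35 mg per L of drinking water from day 90 of life until death. The Ctl group held 2 sarcomas of mice without ATO, which the labels name PBS. The age at death, the sex and the type of each sarcoma are not given in the labels. The labels give the samples as separate but do not tie each to a mouse, so p-values measure the spread between these sarcomas. The series description speaks of tumors before and after ATO, whereas the labels and the methods give treated and control mice, and the groups here follow the labels.

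Keratins work in pairs, in which 1 acidic (type I) chain binds 1 basic (type II) chain, and each kind of epithelium uses its own pairs. Krt8 and Krt18 form the filaments of simple, single-layered epithelia, to which Krt7, Krt19, Krt20 and Krt23 are added in ducts and glands. Krt5 and Krt14 form those of the basal layer of the epidermis, and Krt1 and Krt10 those of the layers above it. The hair follicle has keratins of its own in the root sheaths and the shaft. Sarcomas are tumors of mesenchymal tissue, whose filaments are made of vimentin or desmin, and keratin RNA in a sarcoma sample can come from the tumor cells or from epithelium taken with it. In bulk RNA, more cells of a type and more RNA per cell cannot be told apart.

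Of the 50 keratin genes, 26 were type I genes and 24 type II genes. By class, 10 were epidermal, 6 simple, 22 of the hair follicle and 12 of other kinds. All 50 have a position in the GENCODE M21 annotation of GRCm38, 25 on chromosome 11 and 25 on chromosome 15, and 1 of them (Krt74) is annotated as a pseudogene. The total read count was between 15259695 (ATO 2) and 18134000 (ATO 1), and a count of 0 allows up to 3 counts, which is between 0.165 and 0.197 CPM (counts scaled to a common library size). Keratin genes took 0.00143% of all counts in Ctl 1 and 0.0114% in Ctl 2, against 0.00747% in ATO 1 and 0.0094% in ATO 2. The mitochondrial share of the counts was 14.7% in ATO 2 and at most 2.59% elsewhere. Values without the mitochondrial genes are given at the end, and any other part of this share in the keratin values was not tested.

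Counts of 0 in every sarcoma were found for 17 of the 50 keratins, and 14 more had between 1 and 9 counts at most. The other 19 had at least 10 counts in at least 1 sarcoma, and these are the ones described by their values. They were 6 of 6 simple, 5 of 10 epidermal, 2 of 22 hair and 6 of 12 other keratins. At least 10 counts were found for 6 keratins in Ctl 1 and 12 in Ctl 2, against 6 in ATO 1 and 14 in ATO 2. The comparison of the groups tested 8 of the 50, because the filter on low counts asks for a minimum level in at least 2 sarcomas.

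**Figure D1:**
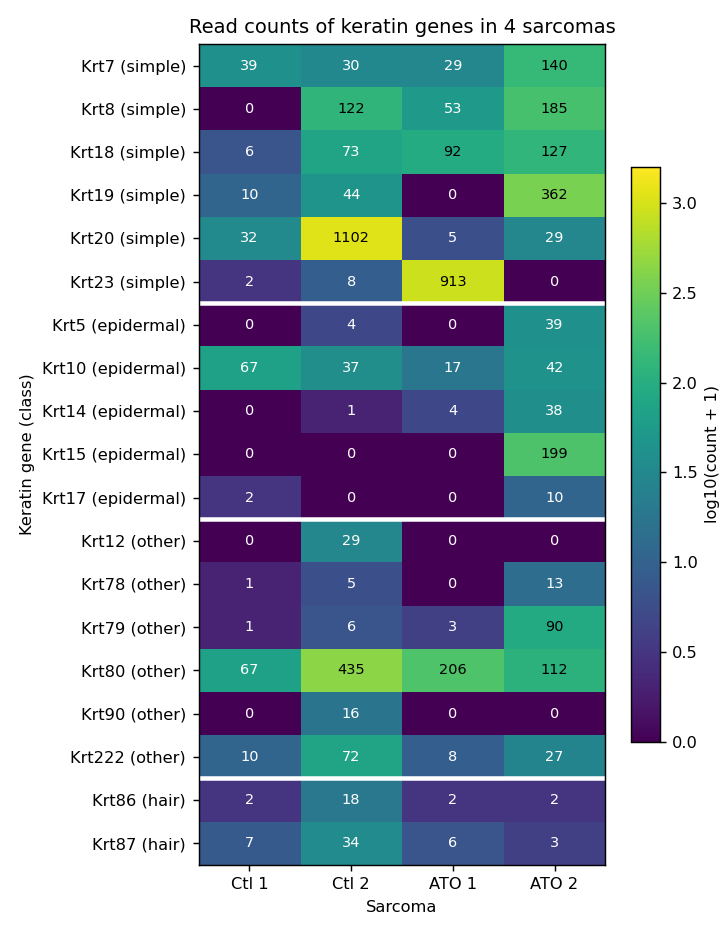
Deposited read counts (printed in each cell, coloured by log10 of the count plus 1) of the 19 keratin genes with at least 10 counts in a sarcoma, by sarcoma (columns) and class (white lines). The highest values are Krt20 with 1102 in Ctl 2 and Krt23 with 913 in ATO 1, each in a single column.

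The start regions of 4 keratins are shown first, because they stand for the kinds of keratin that carry the results: Krt20 and Krt23 for the most abundant ones, Krt18 for the simple pair and Krt5 for the basal pair. Each is the RefSeq sequence of GRCm38.p6 that ends before the more upstream of the RefSeq and GENCODE M21 starts, which can differ by some bases, 5′ to 3′ on the strand of the gene, with the letters TATAAA in capitals where present.
Krt20 (chr11:99438154-99438403, minus strand): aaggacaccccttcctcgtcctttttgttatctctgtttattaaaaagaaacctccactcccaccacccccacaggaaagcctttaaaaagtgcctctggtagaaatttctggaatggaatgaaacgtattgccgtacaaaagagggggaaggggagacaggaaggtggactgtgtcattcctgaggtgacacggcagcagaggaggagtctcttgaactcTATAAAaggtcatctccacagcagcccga
Krt23 (chr11:99493138-99493370, minus strand): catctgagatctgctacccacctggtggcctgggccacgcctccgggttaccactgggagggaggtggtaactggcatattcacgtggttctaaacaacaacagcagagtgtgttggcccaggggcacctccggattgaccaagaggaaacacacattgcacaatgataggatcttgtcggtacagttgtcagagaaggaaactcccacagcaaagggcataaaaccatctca
Krt18 (chr15:102027966-102028179, plus strand): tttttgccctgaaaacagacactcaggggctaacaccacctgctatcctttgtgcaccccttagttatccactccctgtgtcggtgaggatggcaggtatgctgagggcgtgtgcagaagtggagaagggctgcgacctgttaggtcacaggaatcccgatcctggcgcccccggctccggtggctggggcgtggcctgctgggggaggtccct
Krt5 (chr15:101712906-101713155, minus strand): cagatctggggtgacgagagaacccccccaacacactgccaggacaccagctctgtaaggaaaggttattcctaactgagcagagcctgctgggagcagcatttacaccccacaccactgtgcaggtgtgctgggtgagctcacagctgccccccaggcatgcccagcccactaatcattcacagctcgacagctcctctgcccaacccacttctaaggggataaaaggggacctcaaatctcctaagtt

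Among these 4, Krt20 has the exact letters TATAAA, a form of the TATA box that places the start of transcription. Forms of the box with other letters were not searched for. A window of 300 bases, 250 before and 50 after the start, was at hand for 35 of the 50 keratins and for 27025 genes in all. TATAAA on the gene strand, beginning 40 to 20 bases before the start, was found in 13 of the 35 keratins (37.1%) and in 2.22% of all genes. It was found in 9 of 16 hair keratins, 1 of 6 epidermal, 1 of 5 simple and 2 of 8 other keratins. Anywhere in the window and on either strand, TATAAA was found in 51.4% of the keratins and 14.2% of all genes. The letters GGGCGG, a site of the factor Sp1, were found in 2 keratins (5.71%) and in 35.9% of all genes, and TGAGTCA, an AP-1 site, in 0 keratins and 5.17% of all genes. These matches describe the windows and do not show that a factor is bound.

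Krt8 and Krt18, the pair of simple epithelia, were low in all 4 sarcomas and near 0 in Ctl 1. Krt8 (ENSMUSG00000049382; chromosome 15, 101996698 to 102004482) had 0 counts in Ctl 1 and 122 in Ctl 2, against 53 in ATO 1 and 185 in ATO 2. Krt18 (ENSMUSG00000023043; chromosome 15, 102028180 to 102032027) had 6 and 73 counts in Ctl and 92 and 127 in ATO. Ctl 1 was thus the lowest sarcoma for both genes and ATO 2 the highest. In FPKM, the deposited level scaled to exon length and read number, Krt18 stood at 0.24, 2.83, 3.53 and 5.79 in Ctl 1, Ctl 2, ATO 1 and ATO 2. The level of Krt18 divided by that of its partner Krt8 was 0.816 in Ctl 2, 2.37 in ATO 1 and 0.935 in ATO 2. Of the 50-base stretches of Krt8 transcripts, 26.9% also occur in Krt8-ps, a pseudogene of Krt8 at 0 counts in every sarcoma, and the count of Krt8 is uncertain to that extent.

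Each of the other simple keratins stood out in 1 sarcoma. Krt20 (ENSMUSG00000035775; chromosome 11, 99428403 to 99438150) is a keratin of intestinal and bladder lining cells, among others. It had 32 counts in Ctl 1 and 1102 in Ctl 2, against 5 in ATO 1 and 29 in ATO 2. The share of the reads in Ctl 2 was 61.3 CPM (95% exact binomial interval 57.8 to 65.1, which like all intervals here covers counting error only), 32.3 times that of the next sarcoma (interval 22.3 to 48.4). Krt23 (ENSMUSG00000006777; chromosome 11, 99477974 to 99493137), a type I keratin of glandular epithelia, had 2 and 8 counts in Ctl, 913 in ATO 1 and 0 in ATO 2. The 50.4 CPM in ATO 1 (interval 47.1 to 53.7) was 113 times the level of Ctl 2 (interval 57.2 to 262.8). ATO 2, at 0, could not be told apart from Ctl 1 at this depth. The CPM and ratios here and for the keratins below are scaled to the total count. They lack the TMM scaling used for the shares, class sums and fits. In TMM-scaled CPM, Krt20 stood at 55.4 in Ctl 2 and 2.31 in ATO 2, and Krt19 at 2.21 in Ctl 2 and 28.9 in ATO 2.

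Krt19 (ENSMUSG00000020911; chromosome 11, 100140810 to 100148665), a keratin of ducts and glands, had 10 counts in Ctl 1 and 44 in Ctl 2, against 0 in ATO 1 and 362 in ATO 2. Its level in ATO 2 was 9.69 times that of Ctl 2 (interval 7.07 to 13.6). Again 1 ATO sarcoma was the highest and the other the lowest of the 4. Krt7 (ENSMUSG00000023039), the duct partner of Krt19, had between 29 and 39 counts in 3 sarcomas and 140 in ATO 2, which was 4.11 times the next level (interval 2.86 to 6.02).

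The epidermal keratins were low, and those of the basal layer had over 90% of their summed level in ATO 2. Krt15 (ENSMUSG00000054146; chromosome 11, 100131758 to 100135928), made by basal cells of stratified epithelia and by stem cells of the hair follicle, had 0 counts in Ctl 1, Ctl 2 and ATO 1 and 199 in ATO 2. Its level in ATO 2 was at least 75.9-fold higher than in Ctl 1, with 3 counts as the limit of a library at 0. Krt5, the basal type II chain, had 0 and 4 counts in Ctl and 0 and 39 in ATO. Krt14, its type I partner, had 0 and 1 counts in Ctl and 4 and 38 in ATO. In ATO 2 the FPKM was 7.38 for Krt15, 1.42 for Krt14 and 1.16 for Krt5. Of the 50-base stretches of Krt14, 13.9% also occur in transcripts of other genes (Krt16 and Krt17), and 8.52% of those of Krt5, so their counts are uncertain to that extent.

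Of the keratins of the cornifying layers, Krt10 alone had over 1 count. Krt1 had 0 counts in all 4 sarcomas, Krt9 likewise, and Krt2 and Krt77 had at most 1 count. Krt10 (ENSMUSG00000019761), the usual partner of Krt1, had 67 and 37 counts in Ctl and 17 and 42 in ATO. Its FPKM of 0.44 to 1.81 thus came without Krt1. Krt17, which activated keratinocytes make, had 2 and 0 counts in Ctl and 0 and 10 in ATO, and Krt16 had at most 1. Their partner Krt6a, whose symbol carries a letter and which is no member, had 1, 1, 0 and 5 counts in Ctl 1, Ctl 2, ATO 1 and ATO 2.

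Keratins of the hair follicle were at 0 or low in all 4 sarcomas, with 13 of 22 at 0 counts throughout. The 8 keratins of the inner root sheath had at most 3 counts, and Krt75 of the companion layer had 0. Of the 13 keratins of the hair shaft, 9 were at 0. Krt87 had 7 and 34 counts in Ctl and 6 and 3 in ATO, and Krt86 had 2 and 18 counts in Ctl and 2 and 2 in ATO. Ctl 2 was the highest for both. Transcripts of Krt86 share 43.3% of their 50-base stretches with other genes and those of Krt87 36.9%, so these counts cannot be given to 1 gene with certainty. Of 58 genes for keratin-associated proteins, the matrix of the hair shaft, 55 were at 0, and the highest count was 41 (Krtap1-5 in ATO 1).

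Among the remaining keratins, Krt80 was the most abundant. Krt80 (ENSMUSG00000037185), a type II keratin of many epithelia, had 67 and 435 counts in Ctl and 206 and 112 in ATO. Its level in Ctl 2 was 2.13 times that of ATO 1 (interval 1.80 to 2.53). Krt222, a keratin-like gene of the type I cluster, had 10, 72, 8 and 27 counts in Ctl 1, Ctl 2, ATO 1 and ATO 2. Krt79, found in the ducts of hair follicles and sebaceous glands, had 1, 6 and 3 counts in the first 3 and 90 in ATO 2. Krt12, the keratin of the cornea, had 29 counts in Ctl 2 and 0 in the others, and Krt90 had 16 in Ctl 2 and 0 in the others. Krt78 had 1 and 5 counts in Ctl and 0 and 13 in ATO. Of the 19 keratins with at least 10 counts, 7 overlap a gene on the opposite strand (Krt5, Krt7, Krt8, Krt10, Krt12, Krt80 and Krt90). Whether the counting used strand is not given in the sources used here, so reads of the 2 genes cannot be told apart.

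**Figure D2:**
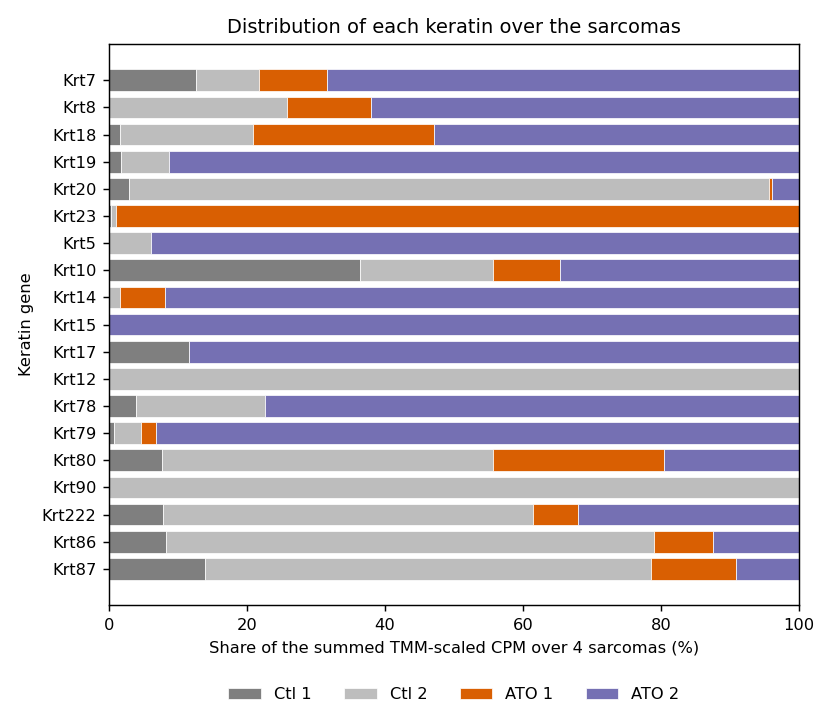
Share of each of the 19 keratins found in each sarcoma, as percent of its summed CPM after TMM scaling (horizontal axis), coloured by sarcoma. For 17 of the 19, 1 sarcoma holds over 50%, and Krt10 and Krt80 are the exceptions.

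Most of these keratins stood out in a single sarcoma. Of the 19 keratins with at least 10 counts, 10 were highest in ATO 2, 7 in Ctl 2, 1 in ATO 1 (Krt23) and 1 in Ctl 1 (Krt10). The level of Krt10 in Ctl 1 was 1.39 times that of ATO 2, scaled to the total count (interval 0.934 to 2.10). Its highest sarcoma is thus not settled. For 17 of the 19 (89.5%) over 50% of the summed level lay in 1 sarcoma, and for 9 (47.4%) over 90%. Over all 19837 genes with at least 10 counts in a sarcoma these shares were 31.2% and 4.5%. Entry into either set needs 10 counts in 1 sarcoma only. A gene of low count can thus enter by its highest sarcoma alone, as Krt12, Krt15 and Krt23 did, and this favours high shares among such genes. The 2 sets of genes were not matched on level, and no test was made.

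Some keratins that lie next to each other had the same highest sarcoma, and others did not. On chromosome 11, Krt12 and Krt20 are neighbours 6143 bases apart, and both were highest in Ctl 2. Krt23, the next keratin, was highest in ATO 1. Krt15 and Krt19 lie 4881 bases apart, and both were highest in ATO 2. On chromosome 15, Krt4, Krt79, Krt78, Krt8 and Krt18 follow each other without another member between them, and all 5 were highest in ATO 2, with 6 counts of Krt4 and 13 of Krt78 there. Other neighbours differed, as Krt7 (ATO 2) between Krt80 and Krt87 (both Ctl 2). As ATO 2 was the highest sarcoma for 10 of the 19 keratins and Ctl 2 for 7, neighbours can share it without regard to position. This order is a description and was not tested.

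The levels of the type I and type II chains were not equal. The summed FPKM of the type I keratins was 3.75 in Ctl 1 and 39.5 in Ctl 2, against 36.7 in ATO 1 and 30.8 in ATO 2, and that of the type II keratins was 1.19, 9.82, 4.14 and 11.9. The type I sum was between 2.59 times (ATO 2) and 8.86 times (ATO 1) the type II sum. Krt20 with an FPKM of 31.82 in Ctl 2 and Krt23 with 32.17 in ATO 1 made up most of the type I sum in these sarcomas. The highest type II level was 6.19, for Krt8 in ATO 2.

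ATO was tested against Ctl by the quasi-likelihood test of edgeR over 17188 genes, with Benjamini-Hochberg adjustment. No keratin passed an adjusted p of 0.05: 0 of the 8 tested, where 0.0% of all genes passed (0 of 17188). At an unadjusted p under 0.05 the number was 0 of 8, against 8.51% of all genes. The fitted level in ATO was the higher one for 4 of the 8 (Krt7, Krt8, Krt18 and Krt19), against 49.2% of all genes, and the lower one for Krt10, Krt20, Krt80 and Krt222. DESeq2 called 0 keratins, in a fit that called 4.13% of all genes. The median log2 fold change of the 8 was 0.60, and that of all genes tested was -0.016. The groups did not overlap for 1 of the 8 with ATO higher (Krt18), against 19.6% of all genes, and for 0 of the 8 with ATO lower, against 20.3%.

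**Figure D3:**
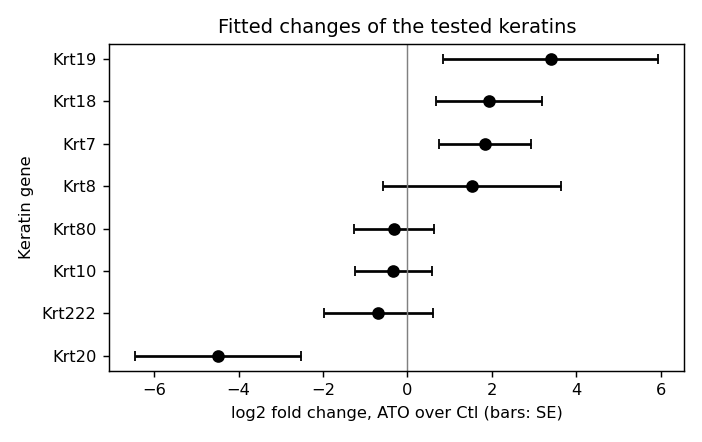
Log2 fold change of ATO over Ctl (horizontal axis, edgeR, bars give the SE) for the 8 keratins that were tested. The fitted values run from -4.48 for Krt20 to 3.39 for Krt19, with SEs between 0.91 and 2.55.

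The fitted change of Krt20 was -4.48 on the log2 scale (SE 1.97, edgeR adjusted p 0.602). It was -0.39 without Ctl 2, so that this 1 sarcoma carried it. For Krt19, the value was 3.39 (SE 2.55, edgeR adjusted p 0.737), and it was -7.71 without ATO 2. For Krt18 it was 1.92 (SE 1.26, edgeR adjusted p 0.701), between 1.05 without Ctl 1 and 4.55 without Ctl 2, with a TMM-scaled level of 1.99 ± 2.37 CPM in Ctl and 7.58 ± 3.60 CPM in ATO (SD, n = 2 each). Krt7 had a value of 1.84 (SE 1.09, edgeR adjusted p 0.681), which was -0.16 without ATO 2. Krt8, at 1.52 (SE 2.11), was -0.06 without ATO 2 and 10.19 without Ctl 2. Krt10 and Krt80 both stood at -0.33, with SEs of 0.91 and 0.95, and Krt222 at -0.69 with an SE of 1.28. Without Ctl 2, Krt80 stood at 1.52 and Krt222 at 1.28, and without ATO 1 Krt10 stood at 0.30. None of these differences was larger than the spread between the sarcomas by this test.

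Krt15 and Krt23, the keratins most confined to a single ATO sarcoma, were not tested by the main comparison. With no filter on low counts, the value for Krt15 was 10.09 (SE 2.40, edgeR adjusted p 0.038), in a fit that called 1.75% of all genes, and for Krt23 it was 6.56 (edgeR adjusted p 0.0592). With a filter of at least 10 counts in a sarcoma, the same genes had adjusted p-values of 0.633 by edgeR. With DESeq2, which called 4.13% of all genes, they had 0.346 (Krt15) and 0.418 (Krt23). All reads of Krt15 lay in ATO 2, so that the call rests on 1 sarcoma.

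**Figure D4:**
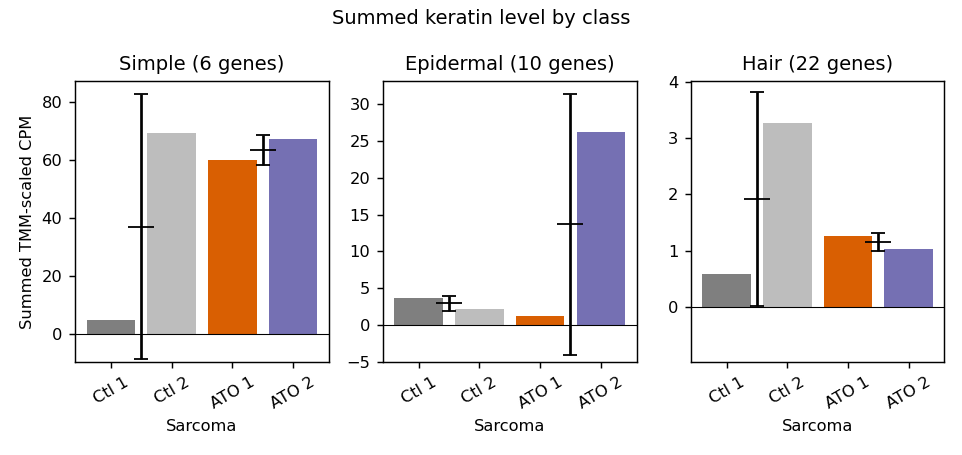
Summed TMM-scaled CPM (vertical axis, separate scale in each panel) of the simple, epidermal and hair keratins in each sarcoma, with the group mean and SD (n = 2) as crosses and bars. The simple sum is low in Ctl 1 alone (4.67), and the epidermal sum is high in ATO 2 alone (26.2).

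Summed over a class, the simple keratins were the most abundant. Their TMM-scaled sum was 4.67 CPM in Ctl 1 and 69.3 in Ctl 2, against 59.8 in ATO 1 and 67.2 in ATO 2, or 37.0 ± 45.7 in Ctl and 63.5 ± 5.23 in ATO (SD, n = 2 each). Different genes led these sums, Krt20 in Ctl 2, Krt23 in ATO 1 and Krt19 in ATO 2. The epidermal keratins summed to 3.62, 2.21, 1.15 and 26.2 CPM in Ctl 1, Ctl 2, ATO 1 and ATO 2. The hair keratins summed to 0.577, 3.27, 1.26 and 1.04 CPM in the same order. The groups overlapped in each class. Two-sided exact permutation tests gave p = 1.0 for each class and p = 0.667 for all keratins, and the smallest p that 2 against 2 sarcomas allow is 0.333.

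Whether skin or another epithelium was in the samples was examined with lists of marker genes. Of 26 genes of the cornified envelope, the protein shell of the outer epidermis, 10 were at 0 in all 4 sarcomas and 17 under 10 counts. Flg and Ivl, which encode the defining proteins filaggrin and involucrin, had at most 1 count, and Lor (loricrin) had between 3 and 19. The list's summed level was 10.4 CPM in Ctl 1 and 137.8 in Ctl 2, against 29.7 in ATO 1 and 54.2 in ATO 2. In Ctl 2 it was mostly Asprv1, a protease of the skin, with 2267 counts there and 54, 173 and 255 in Ctl 1, ATO 1 and ATO 2. Sbsn, a secreted protein of the upper epidermis, had 71 and 108 counts in Ctl and 186 and 143 in ATO. Tgm1, the transglutaminase that crosslinks the envelope, had 41 and 201 counts in Ctl and 114 and 94 in ATO. Flg, Ivl and Lor are outside the rule for naming genes and were picked for their role after their values were seen. Other genes of the list were higher, among them Ly6d with 139 counts in ATO 2 and Klk7 with 50 in Ctl 2.

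Genes of simple epithelium and tight junctions were measured in all 4 sarcomas, and 20 of 22 had at least 10 counts in ATO 2, against 9 in Ctl 1, 12 in Ctl 2 and 10 in ATO 1. Epcam and Cdh1, the surface proteins by which epithelial cells are known, were named after their values were seen. Epcam had 20 and 37 counts in Ctl and 10 and 131 in ATO, and Cdh1 had 23 and 33 counts in Ctl and 12 and 119 in ATO. Both were highest in ATO 2, as were Krt8, Krt18, Krt19 and Krt7. The summed level of the list was instead highest in Ctl 2, with 15.4, 249.7, 22.1 and 89.0 CPM in Ctl 1, Ctl 2, ATO 1 and ATO 2. There Cldn4, a claudin of tight junctions, had 3002 counts, and 0, 1 and 30 in the others. Krt20, too, was highest in Ctl 2. The part of epithelial cells in these keratin values was not tested.

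Of 18 genes of desmosomes and basal keratinocytes, 6 and 10 reached 10 counts in the Ctl sarcomas, and 10 and 13 in the ATO sarcomas. Their summed level was 177.6, 841.2, 313.6 and 187.5 CPM, led by Itga6, Jup and Itgb4. Endothelium and other tissues also make at least the first 2 of these. Trp63, the p53 relative of basal keratinocytes, was named after its values were seen. It had 2 and 5 counts in Ctl and 422 and 19 in ATO, and was thus highest in ATO 1. There Krt5 and Krt15 had 0 counts and Krt14 had 4. Other genes of the list differed from Trp63. Lamb3, Col17a1 and Pkp1, also named after their values were seen, were highest in ATO 2 like the basal keratins, with 93, 19 and 18 counts. Jup and Itgb4 were highest in Ctl 2, with 6400 and 1459 counts. The endothelial list was likewise highest in Ctl 2 (5748 CPM, against 583.0 to 1330 in the others). Mammary and milk genes summed to 2.63, 97.2, 195.8 and 39.3 CPM. In Ctl 2 and ATO 1 this was nearly all Ltf (lactoferrin, also made by neutrophils), with 46, 1883, 3562 and 191 counts in Ctl 1, Ctl 2, ATO 1 and ATO 2. The milk casein Csn1s1 had 173 counts in ATO 2 and at most 3 elsewhere. Sebaceous gland genes summed to 120.0, 111.2, 83.2 and 330.4 CPM. Most of each sum was the single gene Soat1, with 114.6, 105.5, 68.7 and 178.2 CPM in the same order. The lipid enzyme Elovl3, also made by fat, had 1657 counts in ATO 2, 11 in ATO 1 and 0 in Ctl. Salivary and lacrimal genes summed to 24.0, 2.01, 43.1 and 136.1 CPM, of which Amy1, an amylase that liver also makes, gave 43.1 in ATO 1 and 128.8 in ATO 2. Hair shaft and follicle genes summed to between 8.69 and 28.3 CPM and were highest in ATO 1, where the hair regulator Dlx3 had 257 counts, against at most 6 elsewhere. Tchh, the trichohyalin of the inner root sheath, was highest in Ctl 1, with 267 counts. Mesothelium genes summed to between 1.86 and 12.7 CPM, with 216 counts of Bnc1 in Ctl 1 and at most 5 elsewhere. Msln of the same list was instead highest in ATO 1, with 124 counts, against 19 in Ctl 1, 4 in Ctl 2 and 5 in ATO 2. Melanocyte genes summed to between 1.26 and 5.58 CPM. By edgeR, 0 genes of these lists passed an adjusted p of 0.05, as did 0.0% of all genes. At an unadjusted p under 0.05, passed by 8.51% of all genes, the number was 0 of 7 tested cornified envelope genes, 2 of 11 desmosome and basal genes and 3 of 16 simple epithelium genes. It was 2 of 5 for sebaceous genes, 1 of 2 for salivary genes and 0 of 3, 0 of 3, 0 of 2 and 0 of 1 for mammary, hair, melanocyte and mesothelium genes. The fitted level was higher in ATO for 5, 4 and 12 genes of the first 3 lists and lower for 2, 7 and 4, with median log2 fold changes of 0.48, -0.26 and 1.29. It was higher for all 5 tested sebaceous genes, with a median of 3.68. Over all genes it was higher for 49.2%, with a median of -0.016.

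**Figure D5:**
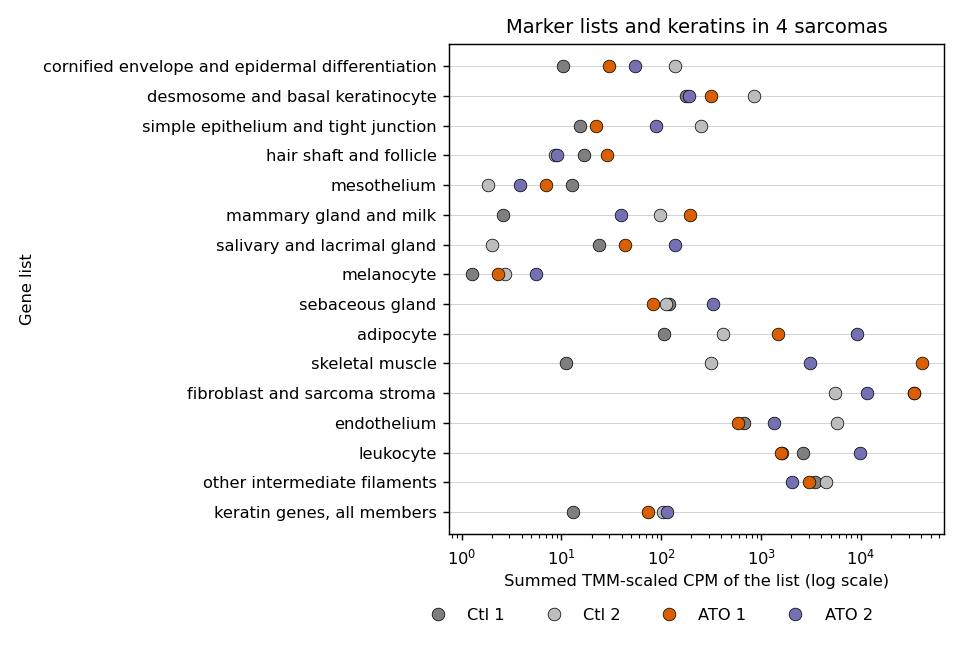
Summed TMM-scaled CPM (horizontal log axis) of each marker list and of all keratins, with 1 point per sarcoma. The keratins sum to between 13.1 and 114.4 CPM, far under the fibroblast list, whose lowest sum is 5504 CPM.

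Tissues other than epithelium differed between the samples as well. The skeletal muscle list, led by Myh4, Acta1 and Tnnt3, summed to 11.2 and 312.8 CPM in Ctl and to 40580 and 3079 in ATO, and all 10 of its genes were higher in both ATO than in both Ctl sarcomas. The adipocyte list, led by Fabp4, summed to 105.2 and 412.1 CPM in Ctl and to 1470 and 9011 in ATO, and all 8 of its genes were higher in both ATO than in both Ctl sarcomas. Over all genes tested, 19.6% were so. ATO 2, which was the highest sarcoma for 10 of the 19 keratins, also had the highest fat and leukocyte (9652 CPM) sums. By edgeR, 8 of the 10 muscle genes and 8 of the 8 adipocyte genes had an unadjusted p under 0.05, against 8.51% of all genes. After adjustment 0 passed, as did 0.0% of all genes. Like all marker lists here, both were chosen with earlier results of these data known, so these shares are a description only. The part of these tissues in the keratin values was not tested. The fitted level was higher in ATO for 5 of 8 fibroblast genes, 6 of 8 leukocyte genes and 0 of 8 endothelial genes. Of 11 tested genes of other intermediate filaments, 4 had a higher and 7 a lower fitted level in ATO. By edgeR, 5 of the 11 had an unadjusted p under 0.05, against 8.51% of all genes, and 0 passed after adjustment. Both ATO sarcomas were below both Ctl for 7 of the 11, against 20.3% of all genes. They were above both for 2, against 19.6%. The mesenchymal filament gene Vim stood at 581.3 and 811.64 FPKM in Ctl and at 130.51 and 272.03 FPKM in ATO, and the muscle filament gene Des had 3.6 and 23.76 in Ctl and 485.67 and 36.78 in ATO. The highest keratin FPKM was 32.17, so that Vim was above every keratin in all 4 sarcomas.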

How the data were processed

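RNA-seq was measured in 4 sarcomas, 2 per group, grouped by their labelled treatment. The authors checked the reads with FastQC 0.10.1, trimmed them with cutadapt 1.9.1, aligned them to GRCm38 with HISAT2 2.0.1 and deposited raw read counts per gene made with HTSeq 0.6.1, whose strand setting is not given. The authors also deposited FPKM values, made from the same counts. The labels carry a growth protocol for cultured cells, which does not describe tumors. Coordinates in the deposited table differ from GRCm38, so positions were taken from GENCODE M21 by gene ID.

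Groups were compared with edgeR 4.0.16 (filterByExpr, TMM, quasi-likelihood test, Benjamini-Hochberg adjustment over all genes) in R 4.3.3. The test was checked on simulated counts. Tried as alternatives were other filters, DESeq2 1.42.0, edgeR with the size factors of DESeq2, no mitochondrial genes, a replicate block, leaving out each sarcoma, and limma 3.58.1 on log2(FPKM + 1) or log2(FPKM + 0.1). Class sums were compared by exact permutation. Total counts were 15259695 to 18134000, and exact 95% intervals cover counting error only. Replicates differed beyond sampling noise. Value columns of other series numbered 0.

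Each keratin with at least 10 counts in a sarcoma was to be described by its values, and of each marker list at most the 3 genes with the highest mean CPM were to be named, others being said to be exceptions. The members and lists were chosen with earlier results of these data known.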

Additional observations from a re-analysis of the deposited data

How the results depend on the processing

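The number of genes called between ATO and Ctl was 0 with edgeR, 754 with DESeq2 and 541 with no filter on low counts, and 0 to 0 when 1 sarcoma was left out. The number of keratins called was 0, and 1 (Krt15) with no filter, and 0 to 0 when 1 sarcoma was left out. The cause of these differences was not tested. Where a sarcoma was left out, the lone sarcoma of its group was assumed to vary like the other group.

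Of 104 alternative values for the 8 tested keratins, 95 kept the direction and 9 reversed it, and the smallest adjusted p was 0.0593. Leaving out 1 sarcoma gave log2 values of -0.16 to 2.63 for Krt7, -0.062 to 10.19 for Krt8, -1.52 to 0.30 for Krt10, -7.71 to 4.76 for Krt19, -1.11 to 1.52 for Krt80 and -2.21 to 1.28 for Krt222, each of which reversed in at least 1 case. Krt18 (1.05 to 4.55) and Krt20 (-6.65 to -0.39) did not. Without Ctl 1 Krt10 was 0.20, and without ATO 1 Krt222 was 0.047. The summed simple level, a log2 difference of 0.76, was 2.74 without Krt20 and -0.12 to 3.51 when 1 sarcoma was left out. The epidermal sum (1.91) then ran from -0.86, without ATO 2, to 2.80, and the hair sum (-0.44) from -0.99 to 0.45, without Ctl 2.

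The replicate numbers are not said to pair sarcomas, and the deviations of same-numbered sarcomas correlated at -0.02. With the replicate block 0 genes and 0 keratins were called, and Krt80 turned to 0.19. Without the mitochondrial genes 0 keratins were called, Krt7 stood at 1.84 and Krt19 at 3.39. The log2 difference of the simple sum was then 0.76 and that of the epidermal sum 1.92. A count of 0 allows up to 3 counts at this depth, so keratins at 0 to 3 counts could not be ranked.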
